A study of Gallus gallus with 6 samples.

Results

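PAX3 and PAX7 are closely related paired-box transcription factors. In vertebrate embryos both genes are switched on at the border of the neural plate, and both are known from the neural crest, the migratory cells that build most of the skeleton and connective tissue of the face. In the trunk the same pair marks the dermomyotome, the part of the somite that gives muscle and dermis. The present account is of the mesenchymal cells of the early chicken nose in which a transcript of either gene was counted.

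These cells were taken from 3 single-cell RNA-sequencing libraries of the frontonasal prominence of Hubbard chicken embryos, which were staged after Hamburger and Hamilton as HH15 or HH18 or HH22, and no treatment, allele or age other than the stage is named for any library. Somite tissue of the dorsal brachial region at HH12, HH15 and HH20 gave 3 further libraries. In the 10x Chromium system each captured molecule carries a unique molecular identifier (UMI), and a cell is known by its barcode. A barcode was called PAX-positive when it held at least 1 UMI of PAX3 or PAX7, at least 1 UMI of ALX4, ALX1, COL1A2 or PDGFRA, and 0 UMIs of EPCAM and SOX2. ALX4 and ALX1 are homeobox factors of the frontonasal mesenchyme, COL1A2 is a chain of type I collagen and PDGFRA is a growth factor receptor of mesenchyme, while EPCAM marks epithelium and SOX2 neural and sensory progenitors. The rule found 1071 of the 9006 nasal barcodes (257 in the HH15 library, 644 in that of HH18 and 170 in that of HH22), out of a total of 17268 for the series. Barcodes that met the same conditions but held neither PAX transcript, the PAX-negative barcodes, numbered 3512. After removal of low-quality barcodes and doublets, 252, 621 and 167 PAX-positive and 926, 1773 and 638 PAX-negative barcodes were kept. Each library pooled tissue of several embryos and each stage gave 1 library, so the 3 stages served as replicates, and stage is part of their spread.

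The members were chosen on these counts, so the levels of the genes used by the rule are a description and were not tested. The PAX call is thin. Of the PAX-positive barcodes, 78.2% at HH15, 71.3% at HH18 and 52.7% at HH22 held exactly 1 UMI of the pair. They also carried more UMIs than PAX-negative barcodes, with medians of 2892.5 against 2378 at HH15, 3418 against 2804 at HH18 and 3863 against 3334.5 at HH22. A PAX-negative barcode is therefore one in which no transcript was counted, which does not show that it had none. Depths ranged from 7702531 to 16725073 UMIs per nasal library, and pairs of libraries shared between 2 and 22 barcode sequences.

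The balance between the genes differed by stage. PAX3 was counted in 6.71% of mesenchymal barcodes at HH15 (95% Clopper-Pearson interval 5.35 to 8.29%), 15.2% at HH18 (13.7 to 16.7%) and 15.7% at HH22 (13.2 to 18.3%). PAX7 went the other way, from 16.6% at HH15 (14.6 to 18.9%) through 14.5% at HH18 (13.1 to 16.0%) to 9.69% at HH22 (7.73 to 11.9%). When barcodes of at least 1500 UMIs were thinned to that depth, PAX3 was found in 3.34%, 7.26% and 7.19% and PAX7 in 9.89%, 7.32% and 4.45%. HH15 thus had the lowest share for PAX3 and the highest for PAX7 at either depth. Shallower kept barcodes were left out, 315 at HH15 and 0 at HH18 and HH22. At HH15 they held 15 PAX-positive and 111 PAX-negative barcodes. The PAX3 shares of HH18 and HH22 overlapped. The intervals cover counting error only, and with 1 library per stage the stages were not tested against each other. Barcodes with at least 5% globin UMIs were taken as blood cells, which should lack both genes. They held a PAX UMI in 0 of 26, 3 of 103 and 6 of 154 cases, at median depths of 6776, 5994 and 11958 UMIs. After thinning it was 0 of each. Of these barcodes, 0, 11 and 35 also met the PAX-negative rule and 0, 2 and 2 the PAX-positive rule. The label of blood cell is therefore not certain for all of them.

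Among the PAX-positive barcodes, those with PAX7 alone made up 68.7% (HH15), 41.5% (HH18) and 24.6% (HH22). Those with PAX3 alone made up 22.2%, 44.0% and 53.3%, and those with both 9.13%, 14.5% and 22.2%. PAX7 was counted in 29.1% of mesenchymal barcodes that held PAX3 at HH15 against 15.7% of those that did not, in 24.8% against 12.7% at HH18 and in 29.4% against 6.04% at HH22. At 1500 UMIs these shares were 10.7% against 9.86%, 14.1% against 6.79% and 7.14% against 4.24%. These shares are of the genes the rule used and describe barcodes of 1 library each. Most nasal barcodes with a PAX transcript were mesenchymal by the rule, with 70.0% of 360 (HH15), 79.7% of 779 (HH18) and 86.5% of 193 (HH22). In the somite libraries the rule took 21.6%, 9.80% and 24.2% of the barcodes with a PAX transcript.

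**Figure D1:**
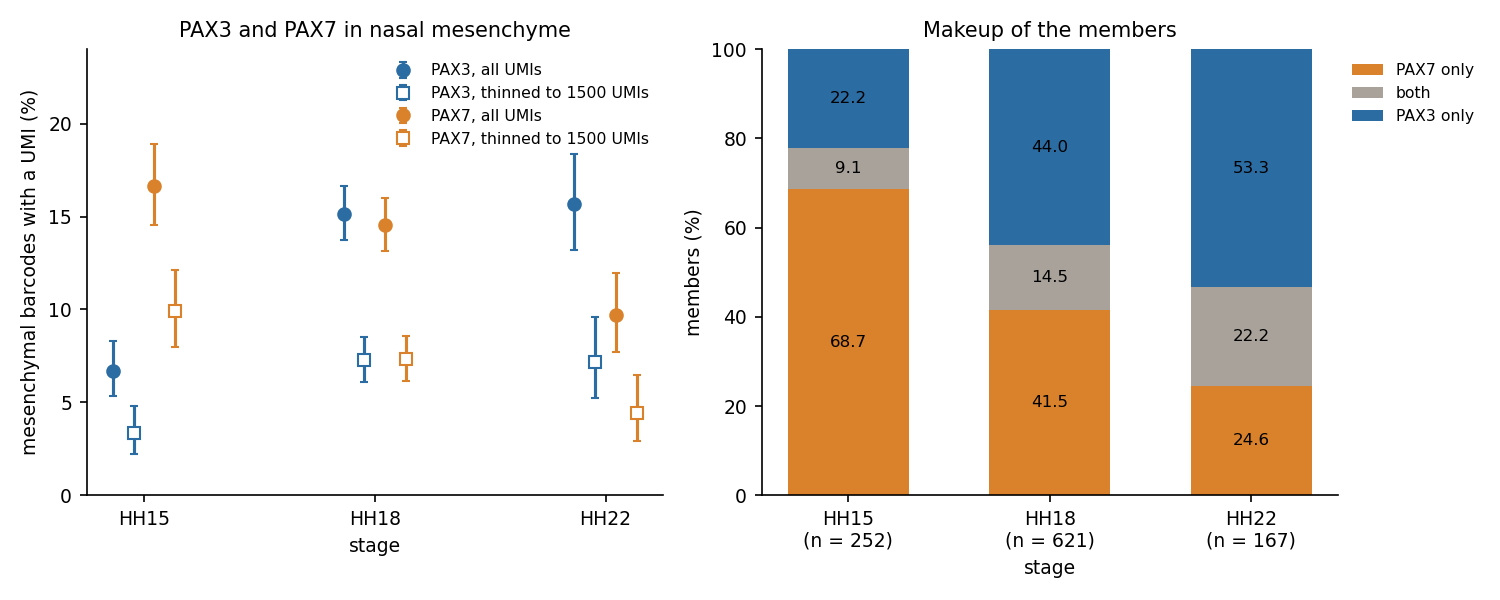
Left, share of nasal mesenchymal barcodes with at least 1 UMI of PAX3 or of PAX7 by stage, in percent, with all UMIs and after thinning to 1500 UMIs; bars are 95% Clopper-Pearson intervals. Right, makeup of the PAX-positive barcodes by stage in percent: PAX7 alone falls from 68.7% to 24.6% and PAX3 alone goes from 22.2% to 53.3%.

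The sums of UMIs over PAX-positive barcodes gave PAX3 at 90.8, 179 and 267 CPM, where CPM is the UMIs in 1000000 after scaling with TMM, the trimmed mean of M-values. Here and below, 3 values in a row stand for HH15, HH18 and HH22 in the nose and for HH12, HH15 and HH20 in the somite. A value with SE is a log2 fold change over 3 libraries, of PAX-positive over PAX-negative sums unless another pair is named. The SE is worked back from the test statistic and is not the spread of the gene between stages. A sum that is higher can come from more barcodes with the transcript or from more transcript per barcode. PAX7 was at 247, 185 and 168 CPM. ALX1 was at 179, 246 and 414 CPM in PAX-positive and 152, 165 and 255 CPM in PAX-negative barcodes. It was the 1 rule gene besides the PAX pair that stood higher in the PAX-positive sum of all 3 libraries. ALX4 was at 407, 373 and 247 CPM against 451, 396 and 241 CPM. COL1A2 (128 to 208 CPM) and PDGFRA (38.7 to 48.5 CPM) lay slightly under the PAX-negative sum of each library.

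The crest factors TFAP2B and TFAP2E, which also served as markers of these cells, were present in them but did not pass the test against PAX-negative mesenchyme. TFAP2B was at 174, 177 and 97.5 CPM in PAX-positive barcodes and 142, 155 and 79.1 CPM in PAX-negative ones, a log2 fold change of 0.24 ± 0.09 SE with an adjusted p = 0.321 in the quasi-likelihood test of edgeR with Benjamini-Hochberg adjustment. TFAP2E was at 24.3, 32.2 and 45.9 CPM against 24.1, 25.8 and 23.9 CPM, with a log2 fold change of 0.38 ± 0.16 SE and an adjusted p = 0.541. Both were higher in the PAX-positive sum in 3 of 3 libraries without passing the test. The third member of the family that could be tested, TFAP2A, which acts early in the crest, did pass. It was at 149, 138 and 83.2 CPM against 112, 83.7 and 58.7 CPM (0.58 ± 0.10 SE on the log2 scale, adjusted p = 0.000448).

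PAX-positive and PAX-negative mesenchyme were then compared over all genes. With the library as a block, 66 of 8186 genes (0.806%) had an adjusted p under 0.05, 24 higher (0.293%) and 42 lower (0.513%) in PAX-positive barcodes, and the median log2 fold change, which TMM scaling holds near 0, was 0.004. These shares over all genes are the measure for the counts of called genes on the lists below. DESeq2 called 11, and without the block edgeR called 0, with 122 at an unadjusted p under 0.05. Without the HH18 library 41 genes were called, and when members needed 2 PAX UMIs 36 were. The rule was also applied to barcodes thinned to 1500 UMIs, with their full counts summed (the rule at equal depth). Barcodes that lost their PAX UMIs in thinning but kept a transcript of a mesenchyme gene then counted as PAX-negative. Those that lost all their EPCAM and SOX2 UMIs in thinning could enter either group, although the main rule left them out. This left 108, 252 and 65 PAX-positive barcodes. In that setting 29 genes were called, and all 62 of the original 66 genes that could be fitted kept their direction. In the thinned counts themselves, 6 genes were called, with 51 of 52 in the same direction.

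The genes that rose with the PAX call included a ligand and a receptor of the ephrin system, by which cells repel or adhere to their neighbours. EFNB2, a transmembrane ephrin, was at 14.8, 42.0 and 130.5 CPM in PAX-positive and 14.4, 27.7 and 32.6 CPM in PAX-negative barcodes (1.02 ± 0.19 SE on the log2 scale, adjusted p = 0.00147). The gap was widest at HH22, and at HH15 the sums were nearly equal. EPHA4, a receptor that can bind EFNB2, was at 55.9, 103 and 146 CPM against 40.6, 50.7 and 97.8 CPM (0.77 ± 0.11 SE, adjusted p = 4.72e-05), higher in every library. EPHA3, another receptor, moved the opposite way, at 7.39, 26.1 and 15.8 CPM against 15.1, 34.4 and 85.2 CPM (-0.96 ± 0.21 SE, adjusted p = 0.0108). Of the 33 genes listed for axon and cell guidance, 28 were tested, with 2 higher, 1 lower and a median log2 fold change of 0.02. Over all 8186 genes, 0.293% were higher and 0.513% lower.

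Among 12 tested genes for crest specification and migration, 3 rose and 1 fell, beside 0.293% and 0.513% of all 8186 genes. Of the 12, 6 had a positive and 6 a negative log2 fold change, and DESeq2 called 0. SOX8, a SoxE factor of the crest, was at 188, 176 and 192 CPM against 168, 128 and 87.3 CPM (0.51 ± 0.10 SE, adjusted p = 0.00457), with most of the gap at HH22, where the PAX-negative level was lowest. MYCN, a growth-promoting bHLH factor, was higher in each library, at 28.7 to 39.5 CPM against 18.3 to 26.3 CPM (0.61 ± 0.15 SE, adjusted p = 0.0385). SOX9, the SoxE factor that is required for cartilage, fell. It was at 53.8, 48.1 and 31.5 CPM in PAX-positive and 68.0, 61.8 and 131 CPM in PAX-negative barcodes (-0.71 ± 0.16 SE, adjusted p = 0.0165). The difference was small at HH15 and HH18 and wide at HH22, where the PAX-negative level was highest. The other 3 tested genes of the cartilage list (SOX5, HAPLN1 and CNMD) were not called, and the list's median was -0.35.

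Several further genes rose in all 3 libraries. GPC3, a cell-surface glypican that binds growth factors, was at 281, 236 and 195 CPM against 242, 179 and 66.5 CPM (0.53 ± 0.11 SE, adjusted p = 0.00766). GJA1, the gap junction protein connexin 43, was at 339.8, 264 and 479 CPM against 286, 211 and 298 CPM (0.41 ± 0.07 SE, adjusted p = 0.000661). CRABP-I, a retinoic acid binding protein, was at 5809, 5495 and 2269 CPM against 4239, 3904 and 2115 CPM (0.36 ± 0.06 SE, adjusted p = 0.000126). These 3 genes stayed called whichever library was left out. With the rule at equal depth only GPC3 of them stayed called, while GJA1 was at 0.29 and CRABP-I at 0.15 on the log2 scale. CRABP-I was the 1 gene of 8 tested in the retinoid list to be called, and DESeq2 called 0 of that list, with 4 at an unadjusted p under 0.05 in edgeR. MYLK, the kinase of myosin light chain, stood apart mainly at HH22, at 178, 174 and 449 CPM against 165, 149 and 155 CPM (0.60 ± 0.13 SE, adjusted p = 0.0117). TOM1L2 (endosomal sorting), DACT2 (a modulator of WNT and TGF-beta signalling), ELK3 (an ETS factor) and COTL1 (an actin-binding protein) rose by 0.36 to 0.55 on the log2 scale.

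The genes that fell included growth factor, matrix and homeobox genes. VEGFD, a vascular growth factor, was at 36.9, 59.1 and 25.8 CPM against 89.6, 119.7 and 60.4 CPM (-1.09 ± 0.12 SE, adjusted p = 1.17e-07), lower in every library. COL4A1, a chain of the basement membrane collagen IV, was at 71.8, 53.0 and 18.6 CPM against 118, 114 and 80.0 CPM (-1.09 ± 0.13 SE, adjusted p = 7.65e-07). Its partner chain COL4A2 was at 36.9, 27.3 and 8.60 CPM against 56.1, 55.1 and 43.9 CPM (-1.01 ± 0.17 SE, adjusted p = 0.000218). The collagen IV pair were the 2 called genes of the 12 tested for basement membrane, whose median was -0.14. Of 17 bone and dermal matrix genes only FN1, fibronectin, was called, at 27.4, 30.2 and 37.3 CPM against 45.7, 35.6 and 92.6 CPM (-0.64 ± 0.16 SE, adjusted p = 0.0374). COL1A1, LUM, DCN and SPARC, the abundant genes of that list, were not called.

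Called homeobox genes of the face were 3 in number and moved in different directions. DLX1, which patterns the branchial arches, was nearly missing from PAX-positive barcodes, at 0, 1.22 and 4.30 CPM against 8.63, 7.22 and 68.2 CPM (-3.05 ± 0.34 SE, adjusted p = 1.93e-07). Its UMIs were 0, 3 and 3 against 24, 42 and 157. DLX1 passed the filter on low counts through the PAX-negative sums, where it is high, so its call adds nothing to those counts. MSX2 was lower by the test, yet only in 2 of 3 libraries, at 21.1, 13.0 and 21.5 CPM against 20.1, 41.9 and 33.9 CPM (-1.03 ± 0.21 SE, adjusted p = 0.00513). MSX1, its relative, was higher in 2 of 3 libraries, at 31.7, 45.6 and 317 CPM against 33.8, 37.8 and 175 CPM (0.52 ± 0.12 SE, adjusted p = 0.0266). Its level at HH22 was far above that at HH15 and HH18 in both groups. The remaining 15 of 18 tested frontonasal factors, among them PRRX1, PRRX2, SIX2, TWIST1 and TBX22, did not pass. Some of them differed at single stages: SIX2 was at 85.5, 96.2 and 105 CPM in PAX-positive and 86.3, 105 and 269.8 CPM in PAX-negative barcodes. MSX2 is also on the list of genes known as PAX3 or PAX7 targets in other species, where 4 of 14 genes could be tested and MEOX1, a somite homeobox gene, was the other called member. MEOX1 was at 5.28, 9.78 and 18.6 CPM against 1.80, 4.30 and 6.08 CPM (1.22 ± 0.30 SE, adjusted p = 0.0394), a low level, and it was not called without HH15 or without HH22.

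**Figure D2:**
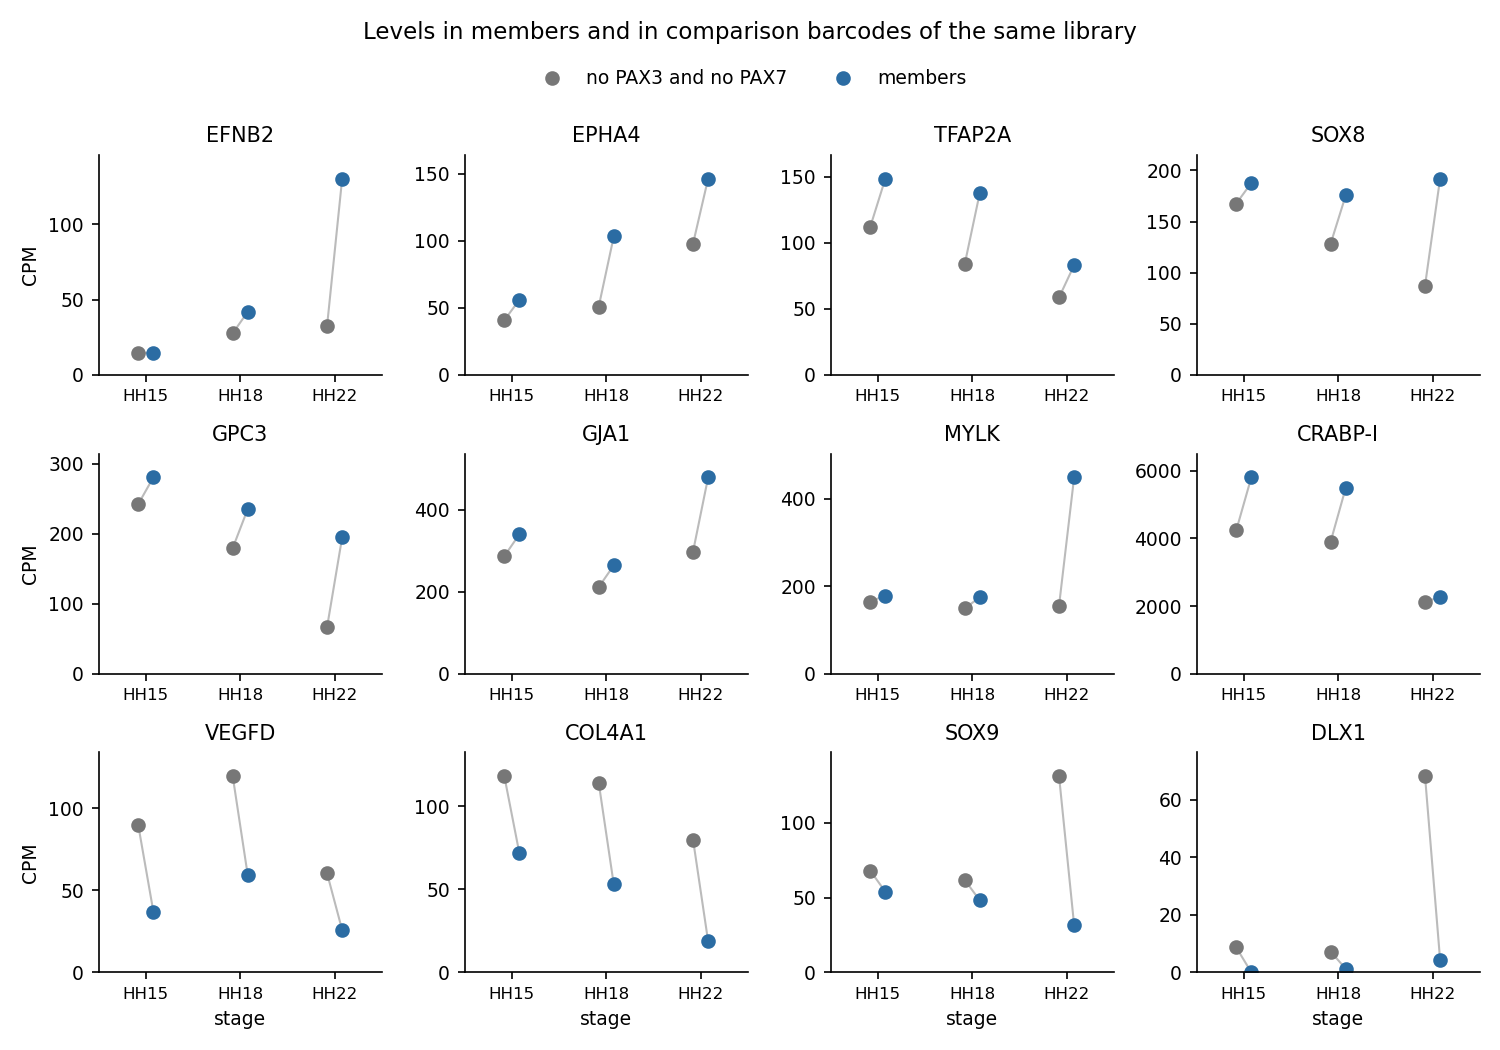
CPM by stage of 12 named genes in PAX-positive (blue) and PAX-negative (grey) nasal mesenchyme, 1 point per library and group, joined within a library, each panel from 0. EFNB2, MYLK and SOX9 part mainly at HH22, whereas VEGFD and COL4A1 are lower in PAX-positive barcodes at all 3 stages.

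Of the signalling lists, that of BMP and TGF-beta held a called gene. BAMBI, a decoy receptor of BMP and TGF-beta signalling, fell at 10.6, 15.5 and 41.6 CPM against 17.6, 29.2 and 56.1 CPM (-0.69 ± 0.17 SE, adjusted p = 0.0437) and was the 1 called gene of 16. None of 8 hedgehog, 14 FGF or 20 WNT genes passed the edgeR test, with 3, 5 and 4 at an unadjusted p under 0.05 and 0 by DESeq2. The same held for 6 periocular factors (2 unadjusted), 18 S phase genes (1), 22 G2 and M phase genes (3) and 11 genes of the dissociation stress response (3). Genes outside these lists that fell were PCP4 (a calmodulin-binding peptide, -0.61 ± 0.09 SE), AIF1L (an actin-binding protein, -0.56 ± 0.12 SE) and the homeobox gene annotated as MEIS2A.2 (-0.81 ± 0.15 SE).

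Markers of several other cell types, though not of all, were lower with the PAX call. Of 9 tested blood genes, 8 were lower in PAX-positive barcodes, beside 0.513% of all genes. HBZ, a globin, was at 149.9, 832 and 6684 CPM against 166, 2282 and 26809 CPM (-1.48 ± 0.13 SE, adjusted p = 4.51e-10), and HBM, HBA1, HBBA, HBE1, 2 copies of HBBR and the red cell anion exchanger SLC4A1 fell too. The blood list summed to 735 to 28558 CPM in PAX-positive and 742 to 117442 CPM in PAX-negative sums. Here and below, summed levels of lists are CPM without TMM scaling. Globin-rich barcodes made up 0, 11 and 35 of the PAX-negative and 0, 2 and 2 of the PAX-positive barcodes. In 1 alternative those were left out, and with them every barcode holding a UMI of SOX10, ELAVL4, STMN2, CDH5, MYF5 or TCF21. The log2 fold change of HBZ was then -0.02. Globin UMIs, HBZ among them, chose barcodes left out, so a move of the globins toward 0 was built in. In that setting 54 genes were called, 50 of them among the original 66. The UMIs of the 2 HBBR copies may be shared between them by the counting. KRT19, a keratin (4.30 to 24.9 against 19.6 to 51.0 CPM), the neuronal tubulin TUBB3 (38.0 to 40.3 against 45.3 to 106 CPM), HEYL, a Notch target (-1.16 ± 0.24 SE), and MYL9, a myosin light chain (61.6 to 130 against 79.5 to 163 CPM), were also lower. Marker lists of surface epithelium summed to 9.46 to 38.0 against 37.5 to 72.9 CPM, of neurons to 59.0 to 82.4 against 72.3 to 157 CPM and of mural cells to 109 to 278 against 166 to 312 CPM and of neural progenitors to 180 to 253 against 221 to 368 CPM, each lower in 3 of 3 libraries. Of their genes, CLDN3, ESRP1 and KRT5, then INA, NEUROD1, NEUROD4, NEUROG1, ONECUT2 and POU4F1, then RGS5 and TAGLN, and OTX2 and SOX21 had 0 UMIs in PAX-positive barcodes. The endothelium list summed to 91.9 to 111 against 76.9 to 117 CPM, lower in 1 of 3 libraries, with 0 of 4 tested genes called. Called were 1 of 2 tested epithelial, 1 of 5 neuronal, 2 of 3 mural and 0 of 4 neural progenitor genes, all lower. In the epithelial and the neuronal list 1 tested gene each had a positive log2 fold change. DESeq2 called 0 on these lists. The part of such cells in these differences was not tested, beyond the count without them.

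Head muscle progenitors, which can also carry these genes, were looked for by their markers. Of 13 of their genes in the annotation, LBX1, MEOX2, MYF5, MYOD1, MYOG and TCF21 had 0 UMIs in PAX-positive barcodes. Of the 2 that could be tested, MEOX1 was called higher, as given above. The list summed to 29.1, 59.0 and 51.4 CPM in PAX-positive against 31.5, 50.5 and 24.99 CPM in PAX-negative barcodes. It was higher at HH18 and HH22 and widest apart at HH22. Most of this sum came from TCF15 and MEOX1, which are also factors of the somite. In PAX-positive barcodes TCF15 had 17, 100 and 23 UMIs and MEOX1 5, 24 and 13. The sum is therefore no measure of head muscle cells. The part of such cells in the differences was not tested, beyond the count without barcodes holding MYF5 or TCF21 and the other markers. Migratory crest, glia and melanoblast genes summed to 2.70 to 19.1 CPM against 4.92 to 11.9 CPM, with KIT and TYRP1 among those at 0.

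The calls rested on single libraries in part. Without HH22, EFNB2, MYLK, SOX9, TUBB3, FN1, MSX1 and EPHA3 were no longer called. Without HH18, EPHA4, TFAP2A, ELK3, MEIS2A.2, AIF1L, MSX2, BAMBI, HEYL and MYL9 were not, DACT2, COTL1 and MYCN were lost without HH18 or HH15, and TOM1L2 without any of the 3. SOX8, GPC3, GJA1, CRABP-I, VEGFD, COL4A1, COL4A2, PCP4, DLX1 and KRT19 were called whichever was left out. For DLX1 the limit of the filter on low counts holds here too. In DESeq2, which called 11 of 8186 genes, 5 of the named genes stayed called and 32 kept only their direction. It called 0 genes on the lists of TFAP2, crest, guidance, cartilage and blood genes. With the rule at equal depth, EFNB2, EPHA4, MYLK, GPC3, COTL1, VEGFD, COL4A1, SOX9, PCP4, AIF1L and 4 globin rows stayed called. The log2 fold change of TFAP2A was 0.30, of SOX8 0.35 and of CRABP-I 0.15 in that setting, none of them called. Its PAX-negative sums also held barcodes with a PAX UMI in the full counts, and its PAX-positive sums held fewer barcodes.

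**Figure D3:**
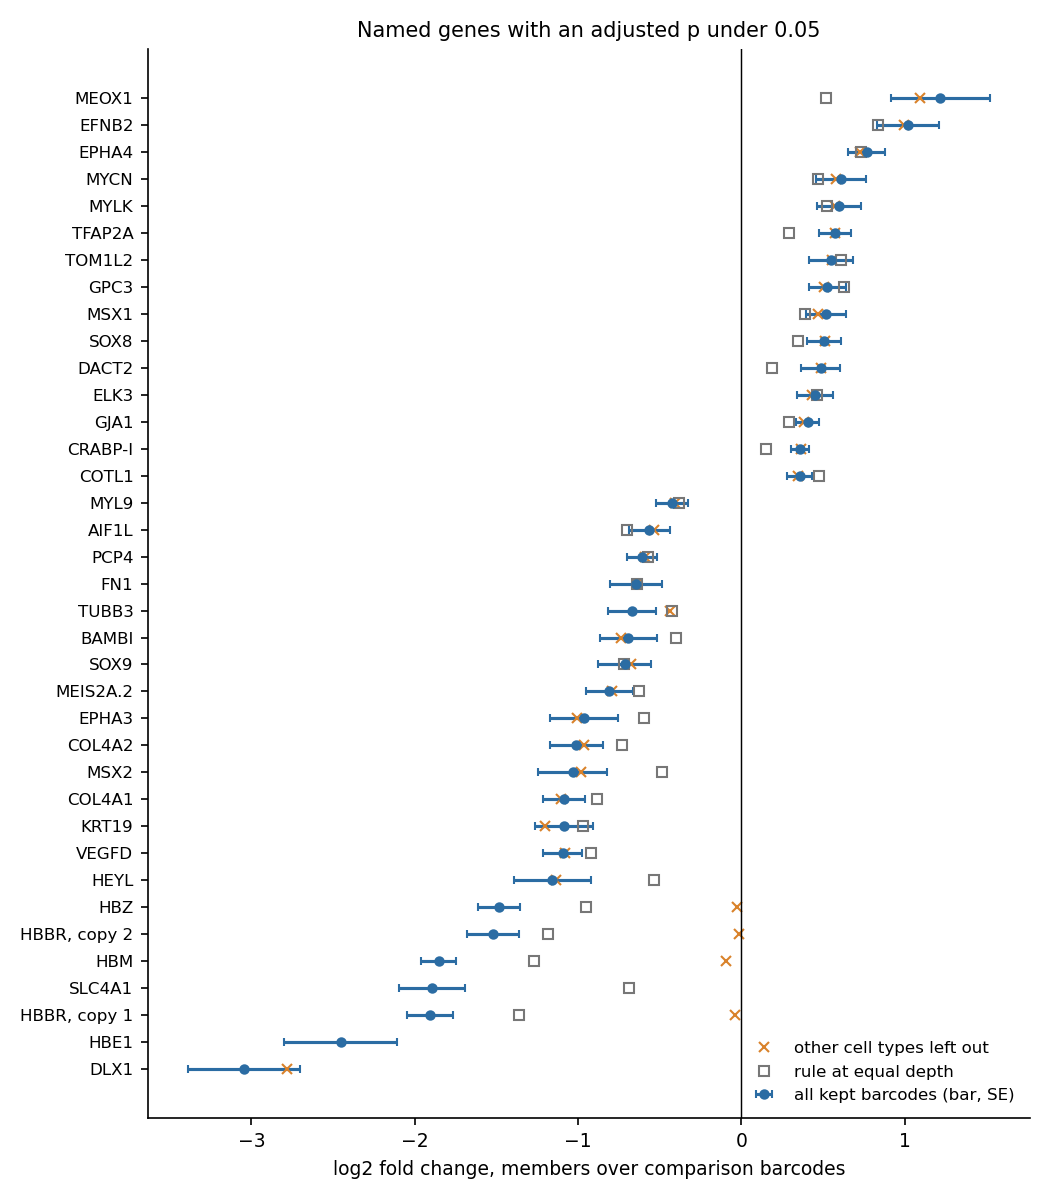
Log2 fold change, PAX-positive over PAX-negative nasal mesenchyme, of the named genes with an adjusted p under 0.05 (edgeR), with bars of 1 SE, and the values with other cell types left out (crosses) and with the rule applied at equal depth (squares). The globins move to near 0 in the first alternative, which left out barcodes by their globin UMIs. TFAP2A, DACT2 and MSX2 come nearer to 0 in the second.

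Few genes were called between barcodes with PAX3 alone and with PAX7 alone. Of 4789 genes tested within libraries, 2 (0.0418%) were called, both lower in PAX3-only barcodes, with 211 at an unadjusted p under 0.05 and 1 called by DESeq2. WPKCI-7, a gene of the W chromosome that only females carry, was at 5573, 9342 and 2066 CPM with PAX3 alone against 6695, 10484 and 2981 CPM (-0.31 ± 0.05 SE, adjusted p = 0.0236). Per the study, embryos of both sexes were included and were not sexed before collection. Whether the share of female barcodes differed between the PAX3-only and PAX7-only sums was not tested. TFAP2A, TFAP2B and TFAP2E were not called, and 0 of them were at an unadjusted p under 0.05. Leaving out HH15, HH18 or HH22 gave 7, 6 or 11 calls. The smaller group of a library held 41 to 258 barcodes, and the simulated test recovered 69% of 2-fold and 90% of 4-fold changes over 4795 genes. The simulation gave all genes the same dispersion and changed only genes that had passed the filter. It therefore does not give the recovery in the real counts.

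The same rule applied to the somite libraries found 190 barcodes, of which 95, 34 and 57 were kept at HH12, HH15 and HH20. ALX4 was counted in 76.2%, 71.8% and 63.5% of the nasal and 8.42%, 17.6% and 21.1% of the somite PAX-positive barcodes. COL1A2 was counted in 35.3%, 47.8% and 56.3% against 49.5%, 52.9% and 68.4%. A frontonasal gene thus helped choose most nasal but few somite barcodes, so the locations were not compared on cells chosen alike. Set against these somite barcodes, 108 of 5023 genes (2.15%) were called in the nasal PAX-positive barcodes, 47 higher (0.936%) and 61 lower (1.21%). Without the somite HH12 library 58 were called and without nasal HH22 170. HH15 is the 1 stage sampled at both locations, with 1 library each, so stage was not a term of the test. At HH15 alone HOXB5 was at 0 CPM in the nose and 61.5 CPM in the somite, TCF15 at 18.7 and 392 CPM, and CYTL1 at 306 and 7.68 CPM. PAX3 itself was at 94.6, 187 and 279 CPM in the nose and 283, 131 and 164 CPM in the somite, and PAX7 at 257, 193 and 176 CPM against 151, 169 and 202 CPM, so that both ranges overlapped. CPM values of this comparison were scaled over its own 6 sums. A gene near 0 at one location could pass the filter on low counts only through the other. The call of such a gene adds nothing to its counts.

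Of the 5 listed TFAP2 genes, 3 passed the filter on low counts, and these were higher in the nose. They passed through the nasal sums, TFAP2E through those alone, so the number called is no result. TFAP2A was at 155, 144 and 87.1 CPM against 16.8, 38.4 and 23.5 CPM (2.35 ± 0.37 SE, adjusted p = 0.00446). TFAP2B was at 182, 185 and 102 CPM against 2.80, 53.8 and 14.1 CPM (3.04 ± 0.55 SE, adjusted p = 0.0101). TFAP2E had 134 UMIs in the nose and 0 in the somite, at least 7.94-fold higher at a floor of 3 counts over the group (adjusted p = 0.0103). The groups did not overlap for any of them, but all 3 calls were lost without somite HH12, and that of TFAP2B also without somite HH20.

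Some factors of the facial mesenchyme were also higher in the nasal sums. SIX2 was at 89.1, 101 and 109.6 CPM against 0, 0 and 4.70 CPM, 390 UMIs against 1, a ratio of 69.3 (95% counting interval 12.4 to 2746). PRRX2 was at 74.8, 64.9 and 69.1 CPM with 0 UMIs in the somite, at least 15.8-fold higher (adjusted p = 0.000794). TBX2, a T-box factor, was at 44.0, 91.4 and 158 CPM against 8.40, 15.4 and 14.1 CPM (2.80 ± 0.57 SE) and was not called when any 1 of the somite libraries was left out. These 3 were the called genes of 13 tested on the frontonasal list, of which 9 had a positive and 4 a negative log2 fold change. SIX2, PRRX2 and TBX2 passed the filter on low counts through the nasal sums, where they are high, so the number called is no result. EDNRA, an endothelin receptor of the cranial crest, stood at 222 UMIs against 2, and SOX8 was at 196, 184 and 201 CPM against 2.80, 0 and 47.0 CPM (3.38 ± 0.55 SE, adjusted p = 0.00529). Both also passed the filter on low counts through the nasal sums.

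Other genes higher in the nose had varied roles. CYTL1, a secreted cytokine-like protein, was at 306, 199 and 199.7 CPM against 2.80, 7.68 and 4.70 CPM, a ratio of 51.9 (95% counting interval 17.7 to 252). GPC3 was at 293, 247 and 204 CPM against 14.0, 23.0 and 9.39 CPM (3.88 ± 0.34 SE, adjusted p = 0.000108). CRABP-I was at 6057, 5757 and 2377 CPM against 67.2, 592 and 629 CPM (3.49 ± 0.63 SE, adjusted p = 0.0101). THBS4 (a thrombospondin), CDH11 (a mesenchymal cadherin), LUM and VCAN (proteoglycans), MYLK, WNT5A, and the WNT antagonists SFRP1 and FRZB were higher as well, by 1.58 to 3.57 on the log2 scale. The collagen receptor ANTXR1 (343 UMIs) and the ETS factor FLI1 (147 UMIs) had 0 in the somite, which sets them at least 20.3-fold and 8.71-fold higher. SCARA5, a ferritin receptor, and ACTA2, smooth muscle actin, stood at 362 UMIs against 3 and 328 UMIs against 1.

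Genes lower in the nose included HOX genes, which set position along the body axis and are off in the crest of the face. Of 30 HOX genes listed, 8 passed the filter on low counts. They passed through the somite sums, where they are high, so the number called among them is no result. HOXB5, HOXB6, HOXB7, HOXB8, HOXD3 and HOXD4 had 44 to 62 UMIs in 186 somite barcodes and 0 in 1040 nasal ones, at least 82.5-fold to 116-fold lower. HOXA5 and HOXA4 had 1 nasal UMI each, against 60 and 35. The secreted guidance protein NTN1 stood at 1 UMI against 144, a ratio of somite to nose of 809.8 (95% counting interval 143 to 32205).

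Paraxial mesoderm genes were lower too, with 3 of 4 tested called. MEOX1 and DMRT2 passed the filter on low counts through the somite sums, where they are high, so that number is no result. TCF15, a bHLH factor of the somite, was at 18.7, 42.7 and 34.5 CPM against 955, 392 and 394 CPM (-4.07 ± 0.41 SE, adjusted p = 0.000179), and it was called under all 14 alternatives. MEOX1 was at 5.50, 10.2 and 19.5 CPM against 871, 192 and 89.2 CPM (-4.89 ± 0.71 SE, adjusted p = 0.00243). DMRT2, a dermomyotome factor, stood at 1 UMI against 35, and MUSTN1, a gene of muscle and skeletal tissue, at 1 against 43. PTN, a secreted growth factor, was at 2.20, 6.40 and 43.5 CPM against 2274, 246 and 65.7 CPM (-5.68 ± 1.15 SE, adjusted p = 0.0226), with a wide gap at HH12 and a narrow one at HH20. It too passed the filter on low counts through the somite sums. FST (a BMP and activin antagonist), PLXNA2 (a semaphorin receptor), FGFR3, LEF1, NKD1, DHRS3, RBP5 and FN1 were lower, with log2 fold changes of -1.63 to -3.90. Of the genes named for this comparison, PTN, TBX2, DHRS3, RBP5, FRZB, LEF1, NKD1, LUM and FN1 lost their call on leaving out any of 2 or more libraries. SCARA5, SFRP1, FST, PLXNA2 and VCAN lost it without somite HH12, SOX10 without somite HH20, and the chemokine CXCL12, which was higher in the nose (2.29 ± 0.43 SE), without nasal HH18 or somite HH12.

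SOX10, which marks migratory crest and glia, was lower in the nasal sums, at 6.60, 0.854 and 0 CPM against 22.4, 53.8 and 117 CPM (-3.72 ± 0.64 SE, adjusted p = 0.00768). It had 6, 2 and 0 UMIs in the nose and 8, 7 and 25 in the somite. SOX10 passed the filter on low counts through the somite sums, so its call adds nothing to those counts. Barcodes with a UMI of SOX10, ELAVL4, STMN2, CDH5, MYF5 or TCF21, or rich in globin, made up 49 of 186 somite and 53 of 1040 nasal PAX-positive barcodes. Without them 93 genes were called, with TFAP2B at 5.01 and SOX10 too low to be fitted.

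**Figure D4:**
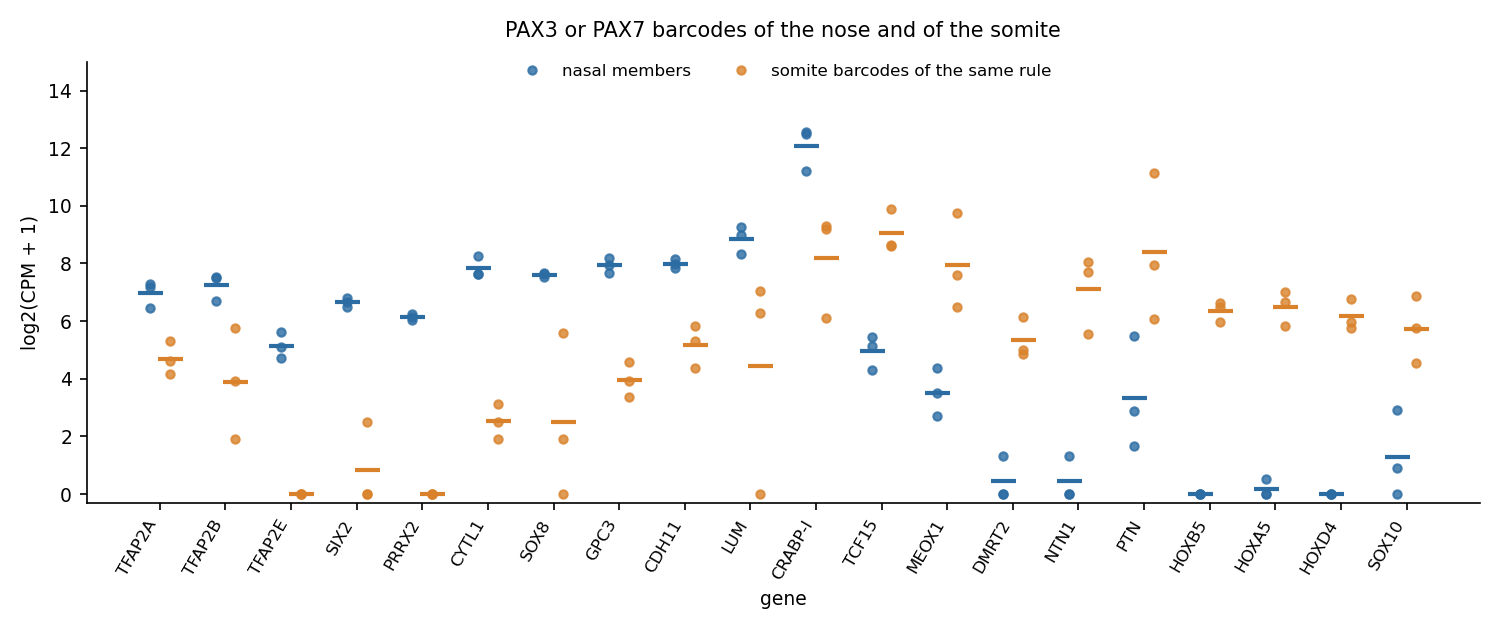
Levels of 20 named genes in PAX-positive barcodes of the 3 nasal and 3 somite libraries, as log2(CPM + 1), 1 point per library with a bar at the mean. The groups do not overlap for any gene shown, and TFAP2E, PRRX2, HOXB5 and HOXD4 lie at 0 in all libraries of one location.

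Whether the difference with the PAX call was the same at both locations was asked with an interaction term over PAX-positive and PAX-negative sums of all 6 libraries. It was called for 28 of 8054 genes (0.348%), 12 with a more positive (0.149%) and 16 with a more negative (0.199%) change in the nose. Without nasal HH18 16 were called and without somite HH12 45. Under the rule at equal depth, which leaves out somite HH15 with 8 members, 2 were called.

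The named genes with a more positive nasal change mostly had changes near 0 in the nose and lower levels with the PAX call in the somite. CDH11 had changes of -0.03 ± 0.09 SE in the nose and -1.71 ± 0.25 SE in the somite on the log2 scale. Its nasal levels were 225, 274 and 242 CPM with and 225, 276 and 255 CPM without PAX. In the somite it was at 18.8, 35.9 and 53.0 CPM with and 77.3, 109 and 161 CPM without. DCN, a small matrix proteoglycan, had changes of -0.10 ± 0.09 SE and -1.54 ± 0.19 SE, and its relative LUM by 0.25 ± 0.09 SE and -0.91 ± 0.26 SE. MMP2, a matrix metalloprotease, had changes of 0.02 ± 0.14 SE and -2.17 ± 0.35 SE. The chemokine CXCL12 had changes of -0.47 ± 0.14 SE and -3.02 ± 0.43 SE, and was lower in 3 of 3 libraries at either location. The somite PAX-positive sums held only 2, 1 and 2 UMIs of CXCL12 and 1, 3 and 8 of MMP2. CNMD (chondromodulin), CRIP1 (a LIM domain protein), TGFB2, JUN and MDK (midkine) were the other named genes of this direction, with interaction terms of 0.49 to 1.88. Among the named genes CDH11, MMP2 and DCN were called whichever library was left out. CXCL12 lost its call without somite HH20, CRIP1 without somite HH12, and the others without any of 2 or more libraries.

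The named genes with a more negative nasal change had higher fitted levels with the PAX call in the somite. FABP5, a fatty acid binding protein, was at 12.9, 12.1 and 8.59 CPM with and 17.1, 28.6 and 18.8 CPM without PAX in the nose. In the somite it was at 151, 57.5 and 146 CPM with and 75.9, 28.7 and 43.5 CPM without, so that the changes were -0.97 ± 0.22 SE and 1.20 ± 0.21 SE. LFNG, a modifier of Notch receptors, had changes of -0.92 ± 0.19 SE and 0.83 ± 0.23 SE, lower in 3 of 3 nasal and higher in 3 of 3 somite libraries. HPCAL1, a calcium sensor, had changes of -0.66 ± 0.21 SE and 1.05 ± 0.24 SE. The 3 genes were called whichever library was left out. PTN, LRIG1 (a receptor inhibitor), AFDN (a junction protein), TCF15 and FABP7 were also called, but not without any of 2 or more libraries. EYA1, a transcription cofactor, had changes of -0.31 ± 0.17 SE and 1.91 ± 0.39 SE, but the sign of the difference turned under thinning and under the rule at equal depth. ZIC1, a zinc finger factor, rested on 3 UMIs in nasal PAX-positive barcodes. EYA1 lost its call without somite HH12 and ZIC1 without nasal HH18.

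**Figure D5:**
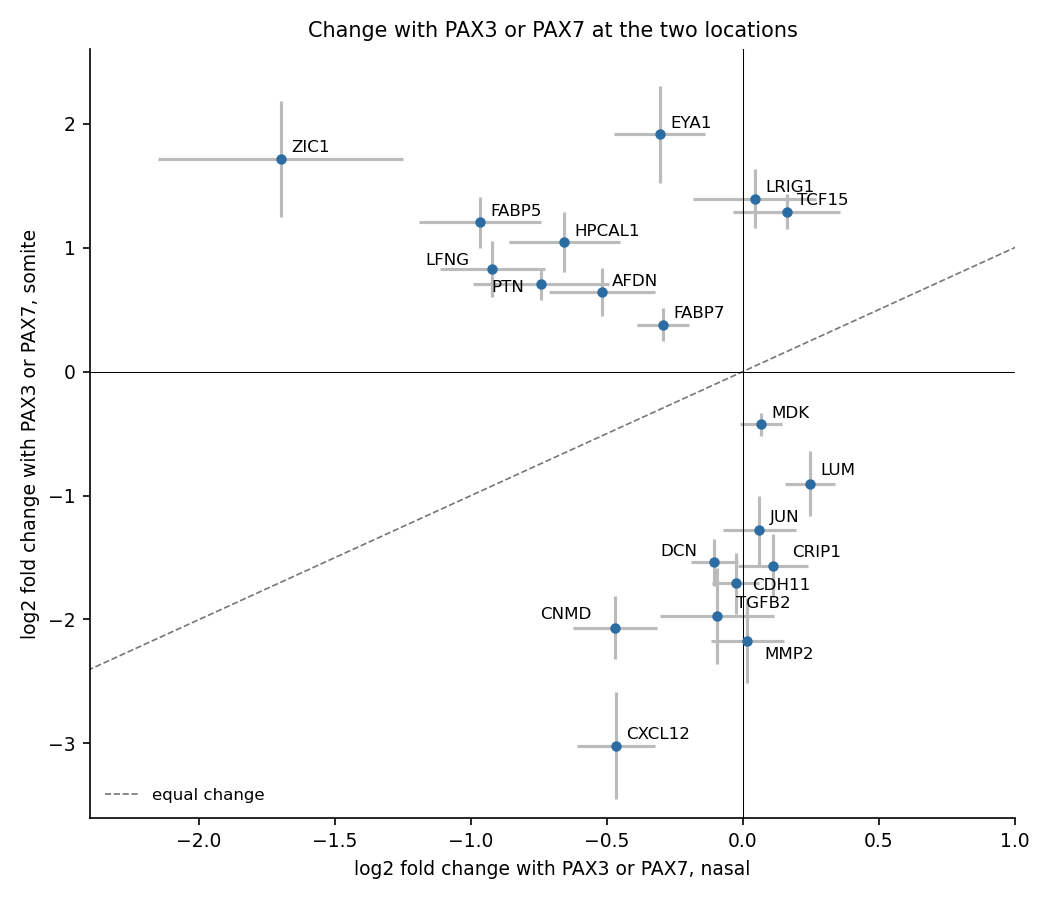
Log2 fold change with the PAX call in the nose (x axis) and in the somite (y axis) for the 20 named genes with an adjusted p under 0.05 for the interaction (edgeR), with bars of 1 SE and a dashed line of equal change. CDH11, MMP2 and DCN lie near 0 in the nose and between -1.54 and -2.17 in the somite, while FABP5 and LFNG have opposite signs at the 2 locations.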

How the data were processed

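The frontonasal prominence and the somite were each profiled at 3 stages with 10x Chromium 3' chemistry after trypsin dissociation. The authors deposited whole UMI counts per gene and barcode, without normalization. Per the study's notes Cell Ranger was used with the GRCg6a build and an annotation of lengthened 3' ends. The gene and barcode lists served only as row and column names, and 4317 of 16828 genes carry no symbol.

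In each library, barcodes were dropped when their UMIs exceeded 4 times the mean or were below 0.2 of the median, or when the mitochondrial share was above 0.1 and lay more than 3 scaled median absolute deviations above its centre in a barcode with no more UMIs than the median. A limit of 0.15 genes per UMI removed 0. Doublet scores came from Scrublet in scanpy 1.11.5, and a share of 0.008 per 1000 barcodes with the top scores was taken out. This left 8510 of 9006 nasal and 7794 of 8262 somite barcodes, and 1040 of the 1071 members.

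For each library, the UMI counts of each group of barcodes were added up, filtered with filterByExpr, scaled by TMM and compared in edgeR 4.0.16 (R 4.3.3, prior count 2) by its quasi-likelihood test, with Benjamini-Hochberg adjustment over all genes and a threshold of 0.05. Rule genes were never counted as called. Where both sums came from the same library, the library was fitted as a block, and this shared origin is the source of the pairing. The deviations of paired sums correlated at 0.41 to 0.61 (PAX-positive with PAX-negative) and 0.24 to 0.43 (PAX3 only with PAX7 only). Nothing says that the stages of a location were replicate cultures or batches. In the tests with a block, p-values weigh the difference within a library against its variation between stages. For nose against somite they weigh the difference against the spread between the stages themselves. In both, the dispersion is estimated in part from other genes, and the SE is worked back from the test statistic. Neither the p-value nor the SE is therefore the spread of the gene itself between stages. MYLK, for one, has an SE of 0.13 although its gap lay mainly at HH22. The tests were tested on simulated sums.

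Genes named are the rule genes and markers, up to 12 called genes per direction with the largest change, given a mean of 50 CPM in either group and a like direction in all libraries (for nose against somite and for the difference between locations, no overlap of the libraries), and up to 6 called genes of each of 28 lists, which hold 499 genes, 444 of them in the annotation. Listed genes with other or no symbols, FOXC1, FOXD3, KLF4 and SNAI2 among them, were not analysed here. Some named genes are not reported here. The members and lists were chosen with earlier results of these data known. Alternatives were DESeq2 1.42.0, its size factors, no filter, no block, each library left out, all barcodes, doublets kept, thinning to 1500 UMIs (315 nasal and 517 somite barcodes were shallower), other cell types left out and 2 PAX UMIs. The rule at equal depth, and somite libraries left out for the difference between locations, were added after seeing the data. Where an alternative left fewer than 10 barcodes in a sum, as in somite HH15 after thinning, that library was not used.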

Additional observations from a re-analysis of the deposited data

Results flagged for a closer look

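The change with PAX3 or PAX7 differed between the nose and the somite by the interaction term of edgeR for 18 named genes whose 3 nasal changes all lay on one side of the 3 somite changes. As nasal minus somite on the log2 scale, the difference was 2.55 for CXCL12, 2.19 for MMP2, 1.88 for TGFB2, 1.68 for CDH11, 1.68 for CRIP1, 1.59 for CNMD, 1.43 for DCN, 1.34 for JUN, 1.15 for LUM and 0.49 for MDK. It was -3.42 for ZIC1, -2.22 for EYA1, -2.17 for FABP5, -1.75 for LFNG, -1.70 for HPCAL1, -1.45 for PTN, -1.35 for LRIG1 and -1.16 for AFDN. EYA1 turned to 1.57 when thinned and to 2.91 with the rule at equal depth. FABP5 and LFNG changed in opposite directions, lower with the PAX call in 3 of 3 nasal and higher in 3 of 3 somite libraries. The fitted value of ZIC1 depends on the prior count. Somite PAX-positive sums held few UMIs of the genes with the largest positive differences: 2, 1 and 2 of CXCL12, 1, 3 and 8 of MMP2 and 4, 2 and 5 of TGFB2. Somite PAX-positive barcodes numbered 186 against 1040 nasal ones, and 49 against 53 of these held markers of other cells or were rich in globin. Their part in these differences was not tested beyond leaving them out, after which 27 of the 28 genes stayed called. With the rule at equal depth 2 of the 28 stayed called, and 0 in thinned counts, where edgeR had 438 genes at an unadjusted p under 0.05 over all genes.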

How the results depend on the processing

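Leaving out 1 library gave 41 to 91 calls for PAX-positive against PAX-negative nasal mesenchyme, 6 to 11 for PAX3 only against PAX7 only, 58 to 170 for nose against somite and 16 to 45 for the difference between locations. The fewest in the first were without nasal HH18, those of the third lay without somite HH12 (58) and without nasal HH22 (170), and those of the last without nasal HH18 (16) and somite HH12 (45). In the same order of comparisons, DESeq2 called 11, 1, 109 and 9 genes. Without a filter 98, 7, 418 and 44 were called. In thinned counts 6, 0, 4 and 0 were, the zeros with 97 and 438 genes at an unadjusted p under 0.05 in edgeR, and with the rule at equal depth 29, 5, 42 and 2. All barcodes gave 117 and 48 calls in the first and last, and other cell types left out gave 6 and 47 in the second and last. Members with 2 PAX UMIs gave 36 calls. Without the replicate block edgeR called 0 genes in the first and in the second comparison, with 122 and 61 at an unadjusted p under 0.05. Causes were not tested. Thinned counts left fewer genes to test in every comparison, whereas leaving out a library left fewer in some fits and more in others. Members made up 21.4%, 25.9% and 20.7% of mesenchymal barcodes at HH15, HH18 and HH22, and 12.9%, 13.6% and 11.1% after thinning. Of the calls that could be fitted, the direction was kept by 51 of 52 in the first comparison and 25 of 28 in the last when thinned, by 59 of 62 in the first without other cell types and by 26 of 28 in the last with the rule at equal depth, and by all under the other alternatives. Among named genes it turned for EYA1, whose difference between locations was -2.22 and turned to 1.57 when thinned and 2.91 with the rule at equal depth. Depth limits the PAX call itself, since most members held 1 PAX UMI, and limits the somite sums, which held 34 to 95 barcodes.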
